A study of Mus musculus with 8 samples.

Results

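Nucleotide synthesis enzymes were followed in mouse hematopoietic stem cells (HSCs) as 9 genes of 22065 named genes in the count table. They were taken by name and not by a value in that table, but with earlier results of these data known. They are Rrm1 and Rrm2, the subunits of ribonucleotide reductase, Tyms and Tk1, which make thymidine nucleotides, Cad and Umps of pyrimidine synthesis, and Paics, Gart and Atic of purine synthesis. All 9 passed the filter on low counts.

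The HSCs were sorted from bone marrow as CD150+ CD48- EPCR+ Lineage- cells, and RNA of 100 cells went into each library. The paper defines long-term HSCs as also positive for c-Kit, the product of Kit. There were 4 libraries of Mitol Δ/Δ HSCs and 4 of control HSCs. Mitol Δ/Δ mice carried Mitol Flox/Flox with MX1-cre and control mice carried Mitol Flox/Flox without it. All mice were C57BL/6, were labelled as 8 to 10 weeks old and were studied 1 week after Poly:IC, which both groups share. MX1-cre is an interferon-responsive driver that Poly:IC switches on. It acts in blood cells of many kinds and not in HSCs alone. Mitol, listed as Marchf5, encodes a ubiquitin ligase of the mitochondrial outer membrane. The labels do not say whether the 4 libraries of a group came from separate mice, so p-values measure the spread between these samples, which may be technical.

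Cells build deoxynucleotides (dNTPs) from ribonucleotides, and ribonucleotide reductase carries out that conversion with a large subunit, RRM1, and a small subunit that holds the radical, RRM2. RRM2 is made in S phase and is broken down later in the cycle, while its relative p53R2 (Rrm2b) serves cells outside S phase. Purines and pyrimidines themselves are either made anew from amino acids, folate carbon and bicarbonate, or salvaged from nucleosides, and resting cells, as most HSCs are, need few dNTPs.

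Totals on named genes ran from 7214935 to 12398138 reads per library. Marchf5 itself counted 276, 232, 309 and 281 in Mitol Δ/Δ and 299, 312, 334 and 262 in control replicates 1 to 4, and its log2 fold change was -0.15 (95% interval -0.44 to 0.14, edgeR). The count covers the whole gene and the sources used here do not give the deleted exons, so it does not check the labels, and groups are named as labelled throughout. All 10 HSC markers looked for were counted, among them Procr at 387 to 719 and Slamf1 at 299 to 669 normalized counts per library. Of these 10, 3 fell, among them Kit and Hlf, by 0.75 and 0.79 on the log2 scale, and the other 7 did not pass the test. Cd48, which the gate removes, was at 22.2 to 63.4 in Mitol Δ/Δ and 4.49 to 21.7 in control libraries and rose (log2 fold change 1.72, adjusted p = 0.0450, edgeR quasi-likelihood test with Benjamini-Hochberg adjustment), and its part in the results below was not tested. Mitol Δ/Δ replicate 3 stood apart in red-cell transcripts. The 10 erythroid markers summed to 5148 normalized counts in it and to 464 to 910 in control libraries. They summed to 2119 in Mitol Δ/Δ replicate 4 and to 1065 and 1139 in replicates 1 and 2. Red-cell transcripts were thus not confined to Mitol Δ/Δ replicate 3. Slc4a1 was at 1387 in that replicate. Results without that replicate are given beside the counts they touch.

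The promoters of the 4 enzymes that rose are shown as the stretches just before the starts of the changed messages. Their part in the change was not tested. Each is the 250 bases before the gene's start, 5′ to 3′ on the gene's strand, from RefSeq with coordinates of GRCm38.p6: Rrm1 at chr7:102441445-102441694, Rrm2 at chr12:24708004-24708253, Cad at chr5:31054530-31054779 and Paics at chr5:76951052-76951301, all on the plus strand. Capitals mark a CCAAT box (the letters CCAAT), a GC box (GGGCGG) or an E-box (CACGTG) on either strand.
Rrm1: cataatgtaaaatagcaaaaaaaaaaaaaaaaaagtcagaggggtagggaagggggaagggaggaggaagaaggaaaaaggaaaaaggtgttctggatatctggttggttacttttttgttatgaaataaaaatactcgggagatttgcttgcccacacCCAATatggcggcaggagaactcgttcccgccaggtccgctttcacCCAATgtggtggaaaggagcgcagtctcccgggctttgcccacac
Rrm2: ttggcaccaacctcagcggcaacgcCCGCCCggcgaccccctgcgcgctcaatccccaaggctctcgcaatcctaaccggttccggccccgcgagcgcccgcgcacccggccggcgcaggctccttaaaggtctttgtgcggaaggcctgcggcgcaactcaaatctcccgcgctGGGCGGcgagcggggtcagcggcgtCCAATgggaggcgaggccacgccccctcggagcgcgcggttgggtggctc
Cad: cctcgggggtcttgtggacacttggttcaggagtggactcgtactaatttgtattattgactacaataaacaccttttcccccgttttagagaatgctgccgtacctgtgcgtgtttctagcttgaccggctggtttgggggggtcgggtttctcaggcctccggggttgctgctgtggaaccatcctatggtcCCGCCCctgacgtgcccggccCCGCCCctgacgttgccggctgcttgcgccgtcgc
Paics: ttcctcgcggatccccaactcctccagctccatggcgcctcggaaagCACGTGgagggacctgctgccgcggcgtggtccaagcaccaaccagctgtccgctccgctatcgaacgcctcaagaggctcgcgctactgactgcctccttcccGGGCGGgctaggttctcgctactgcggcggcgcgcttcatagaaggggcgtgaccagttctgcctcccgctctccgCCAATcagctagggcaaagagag
The search covered these 250 bases and the 50 after the start, and all 9 members had a window. CCAAT was found in 5 of 9 members and in 37.4% of all 32851 windows of that length. A GC box was found in 8 of 9 members, all but Rrm1, against 35.7% of windows. CACGTG was found in 3 members, Tyms, Paics and Atic, against 7.15% of windows. The E2F letters TTTCCCGC, TTTGGCGC, TTTCGCGC and TTTGCCGC were in 0 of 9 members and 2.26% of windows, which says only that these exact letters are not in these windows. The 32851 windows were not matched to the members in base content or expression, so the shares are no test of enrichment. Both strands were read, matches of different motifs may overlap, and none of the matches is a measured binding site.

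Of the 9 enzymes, 4 rose in Mitol Δ/Δ HSCs and 0 fell. The risers were Rrm2, Rrm1, Cad and Paics, and 4.68% of the 16444 genes tested rose and 3.75% fell at the same threshold, 8.43% in all (edgeR, adjusted p under 0.05). The other 5, Tyms, Tk1, Gart, Atic and Umps, had higher means in Mitol Δ/Δ HSCs but did not pass the test. All 9 had an unadjusted p under 0.05 in that direction, and DESeq2 and limma-voom also called 0 of them lower. The share of all tested genes under that unadjusted threshold was not counted. Unadjusted counts, here and for the lists below, therefore have no background beside them. The median log2 fold change over the 9 was 0.60, and it was -0.02 over all genes tested. In bulk RNA of sorted cells, more cells that use a gene and more RNA per cell cannot be told apart. Counts below are normalized by the size factors of DESeq2 unless stated otherwise, and replicates are given in the order 1 to 4.

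**Figure D1:**
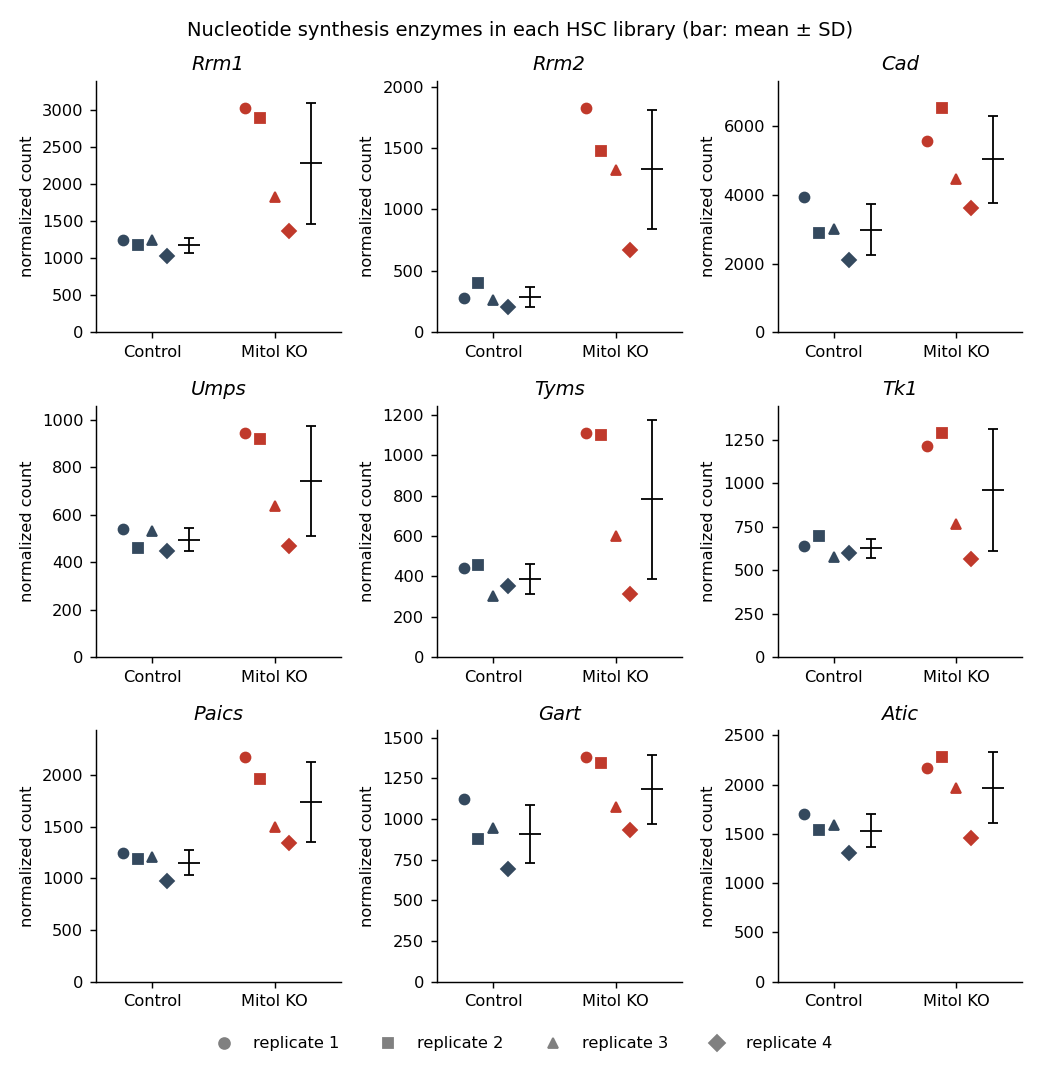
Normalized counts (vertical axes, from 0) of the 9 enzymes in the 4 control (dark) and 4 Mitol Δ/Δ (red, marked Mitol KO) HSC libraries, with marker shapes for replicates and bars for mean ± SD. The groups are separate for Rrm1, Rrm2 and Paics, and replicate 4 is the lowest Mitol Δ/Δ library in 9 of 9 panels.

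Rrm2, the small subunit of ribonucleotide reductase, had the largest fold change of the 9. It counted 1826, 1479, 1325 and 671 in Mitol Δ/Δ libraries and 282, 403, 263 and 206 in control libraries. Every Mitol Δ/Δ library lay above every control library, with replicate 4 closest to the controls. The means were 1325 ± 484 and 289 ± 83.1 (SD, n = 4 libraries each). Rrm2 rose 4.55-fold (95% interval 3.02 to 6.85, log2 fold change 2.18 with SE 0.27, adjusted p = 0.00344, edgeR quasi-likelihood test with Benjamini-Hochberg adjustment). It passed the threshold in 17 of 17 settings tried, with a log2 fold change of 1.99 to 2.42 when any 1 library was left out. Rrm2 lies at chr12:24757811-24764145 on the plus strand of GRCm39. In GENCODE, 43.3% of its exon bases are shared with an antisense non-coding RNA, Gm59512, which is not a row of the table, and the strand setting of the counting is not given in the sources used here.

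Rrm1, the large subunit, counted 3031, 2894, 1826 and 1370 in Mitol Δ/Δ libraries and 1249, 1178, 1243 and 1027 in control libraries. The control libraries were tightly grouped, and Mitol Δ/Δ replicates 1 and 2 were far above replicates 3 and 4, which still lay above every control. Rrm1 rose 1.92-fold (95% interval 1.41 to 2.61, log2 fold change 0.94 with SE 0.21, adjusted p = 0.0207, edgeR). The call was lost when Mitol Δ/Δ replicate 1 or 2 or control replicate 2 or 4 was left out, where the adjusted p reached 0.0644, and the log2 fold change with any 1 library left out was 0.78 to 1.14. Rrm1 lies at chr7:102090890-102119709 on the plus strand.

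The alternative small subunit, Rrm2b, went the other way in its values. It counted 146, 107, 123 and 153 in Mitol Δ/Δ and 194, 167, 131 and 228 in control libraries. The 2 groups overlapped, and its log2 fold change of -0.46 did not pass the test (95% interval -0.89 to -0.03, adjusted p = 0.161, edgeR).

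Counts of 2 genes within the same library can be compared with no scaling between libraries, and 8 such ratios were tested, with p-values adjusted over the 8. Rrm2 had 0.575 counts per Rrm1 count in Mitol Δ/Δ HSCs against 0.240 in the controls (geometric means). On the log2 scale the ratio was -0.73, -0.97, -0.46 and -1.03 in Mitol Δ/Δ libraries and -2.14, -1.54, -2.24 and -2.32 in control libraries. All 4 Mitol Δ/Δ libraries lay above all 4 controls, including replicate 4, in which both subunits were low. The difference was 1.26 with SE 0.22 (2-sided exact permutation test, p = 0.0286, the smallest that 70 arrangements allow, 0.0571 adjusted). Rrm2 counts per Rrm2b count (9.48 against 1.59) and per Cad count (0.253 against 0.0961) were likewise higher in every Mitol Δ/Δ library than in every control library. Each of these ratios had the same p = 0.0286 by the exact permutation test and 0.0571 adjusted, so none passed the threshold after adjustment. With this smallest p, a ratio could pass only if more of the 8 had also reached it.

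**Figure D2:**
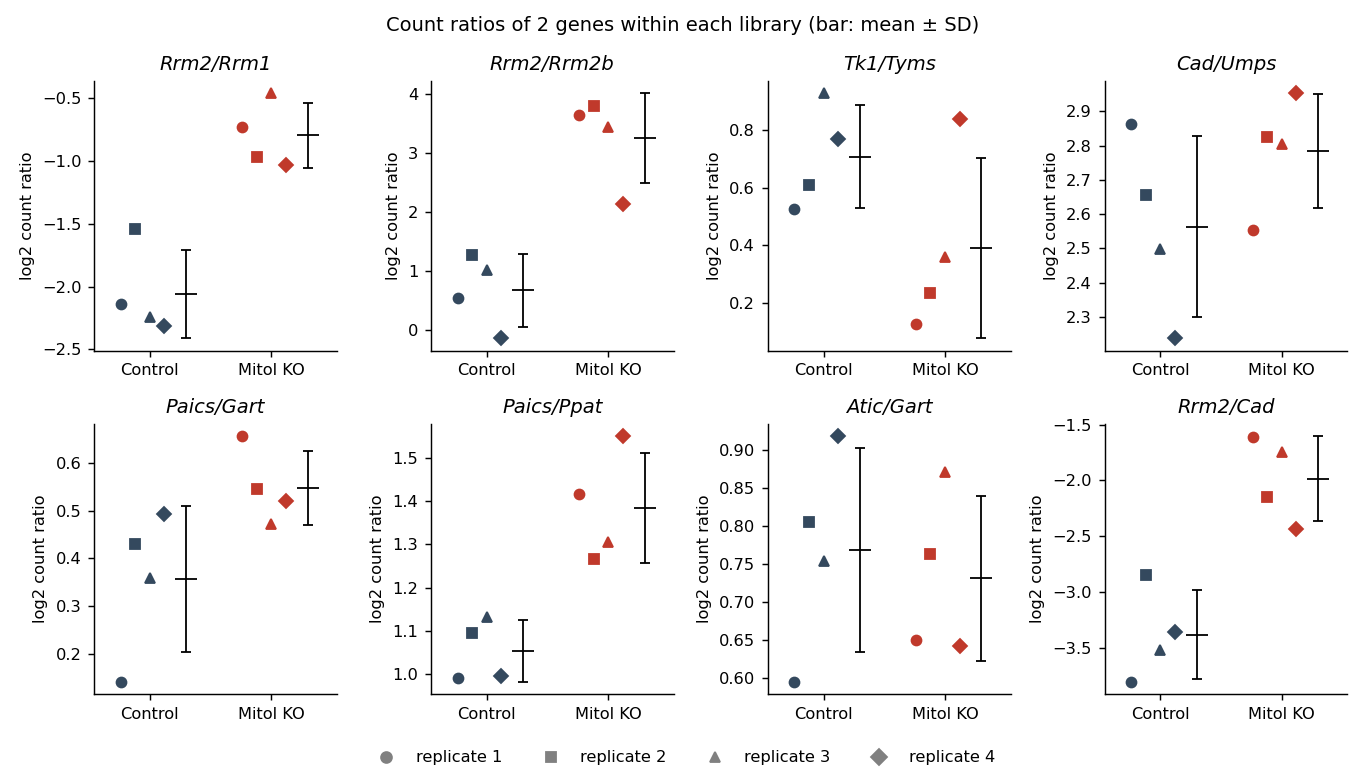
Log2 count ratios of 2 genes within each library (vertical axes, which do not start at 0), for control (dark) and Mitol Δ/Δ (red) HSCs, with marker shapes for replicates and bars for mean ± SD. The groups are separate for Rrm2/Rrm1, Rrm2/Rrm2b, Paics/Ppat and Rrm2/Cad, and they overlap for the other 4 ratios.

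Tyms, thymidylate synthase, methylates dUMP to dTMP. It counted 1113, 1099, 600 and 314 in Mitol Δ/Δ libraries and 443, 458, 301 and 350 in control libraries. Mitol Δ/Δ replicates 1 to 3 lay above every control, and replicate 4 lay below 3 of the 4 controls. Its log2 fold change of 0.99 (SE 0.32, 95% interval 0.31 to 1.68) did not pass the test (adjusted p = 0.0692, edgeR). Its Mitol Δ/Δ libraries spanned 3.54-fold from lowest to highest, the widest span among the 9, against 1.52-fold in control libraries. Tyms lies at chr5:30263198-30278633 and Tk1 at chr11:117702770-117717042, both on the minus strand. Of the Tk1 exon bases, 9.45% are shared with Syngr2 and 1.81% with Afmid, coding genes on the opposite strand.

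Tk1, the cytosolic thymidine kinase that recovers thymidine, counted 1215, 1293, 769 and 563 in Mitol Δ/Δ and 638, 698, 575 and 597 in control libraries. Replicate 4 was below all 4 controls and the other 3 were above them. Its log2 fold change of 0.60 (95% interval 0.13 to 1.06) did not pass the test (adjusted p = 0.0999, edgeR). The Tk1 to Tyms ratio did not differ beyond its spread either (log2 difference -0.32 with SE 0.18, exact permutation p = 0.143, 0.190 adjusted).

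Cad carries the first 3 activities of pyrimidine synthesis in 1 protein. It counted 5562, 6537, 4453 and 3632 in Mitol Δ/Δ libraries and 3938, 2902, 3002 and 2115 in control libraries. The groups overlapped by 1 library, since Mitol Δ/Δ replicate 4 was below control replicate 1. Cad rose 1.67-fold (95% interval 1.25 to 2.22, log2 fold change 0.74 with SE 0.19, adjusted p = 0.0358, edgeR). The call held in 2 of the 8 fits that left out 1 library, those without Mitol Δ/Δ replicate 4 or control replicate 1. In the other 6 the adjusted p reached 0.100, and the log2 fold change over the 8 fits was 0.59 to 0.91. Cad lies at chr5:31212111-31236418 on the plus strand.

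Umps, which finishes UMP, counted 947, 922, 636 and 469 in Mitol Δ/Δ and 541, 460, 531 and 448 in control libraries. Replicate 4 lay within the controls and the other 3 above them. Its log2 fold change was 0.57 (95% interval 0.16 to 0.98, adjusted p = 0.0810, edgeR). Umps lies at chr16:33774077-33787429 on the minus strand. The Cad to Umps ratio was 6.89 in Mitol Δ/Δ against 5.91 in control HSCs, with overlapping libraries (exact permutation p = 0.257, 0.294 adjusted). Dhodh, the mitochondrial enzyme between Cad and Umps in the pathway, was at 304 ± 68.4 and 315 ± 15.1 (SD, n = 4 libraries each), a log2 fold change of -0.07 (95% interval -0.41 to 0.26, adjusted p = 0.807, edgeR).

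Paics joins steps in the middle of purine synthesis. It counted 2172, 1959, 1495 and 1342 in Mitol Δ/Δ libraries and 1241, 1186, 1210 and 974 in control libraries. The groups were separate, with Mitol Δ/Δ replicate 4 next to the highest control. Paics rose 1.49-fold (95% interval 1.20 to 1.85, log2 fold change 0.58 with SE 0.14, adjusted p = 0.0309, edgeR). The call was lost in 5 of the 8 fits that left out 1 library, those without Mitol Δ/Δ replicate 1 or 2 or control replicate 2, 3 or 4, with an adjusted p of at most 0.0886. Paics lies at chr5:77099139-77116370 on the plus strand.

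Gart, which holds 3 purine activities, counted 1380, 1343, 1077 and 935 in Mitol Δ/Δ and 1124, 880, 943 and 692 in control libraries. Control replicate 1 exceeded Mitol Δ/Δ replicates 3 and 4. Atic, which closes the purine ring to give IMP, counted 2165, 2278, 1971 and 1459 in Mitol Δ/Δ and 1697, 1539, 1590 and 1308 in control libraries, and here replicate 4 alone lay among the controls. Gart lies at chr16:91416576-91444536 on the minus and Atic at chr1:71596294-71619241 on the plus strand. Of the Gart exon bases, 13.1% are shared with the antisense RNA Gm15964 and 7.55% with Son, a coding gene on the opposite strand. The log2 fold changes of Gart and Atic, 0.36 (95% interval 0.03 to 0.70) and 0.34 (0.06 to 0.63), did not pass the test (adjusted p = 0.154 and 0.120, edgeR). The Atic to Gart ratio was 1.66 and 1.70 in the 2 groups, a log2 difference of -0.04 with SE 0.09 (exact permutation p = 0.743).

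Paics and Ppat are neighbours on opposite strands whose 5′ ends overlap. The RefSeq start of Ppat lies 276 bases inside Paics, so the Paics bases shown above lie within the span of Ppat. Ppat, the first committed enzyme of purine synthesis, counted 814, 815, 604 and 458 in Mitol Δ/Δ and 624, 555, 552 and 489 in control libraries, with a log2 fold change of 0.26 that did not pass the test (adjusted p = 0.343, edgeR). Within libraries Paics had 2.61 counts per Ppat count in Mitol Δ/Δ HSCs against 2.08 in the controls. The log2 ratio was 1.42, 1.26, 1.31 and 1.55 against 0.99, 1.09, 1.13 and 1.00, so the groups were separate, and replicate 4 had the highest ratio (difference 0.33 with SE 0.07, exact permutation p = 0.0286, 0.0571 adjusted). The 2 genes share 298 exon bases on opposite strands, 3.48% of those of Paics.

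**Figure D3:**
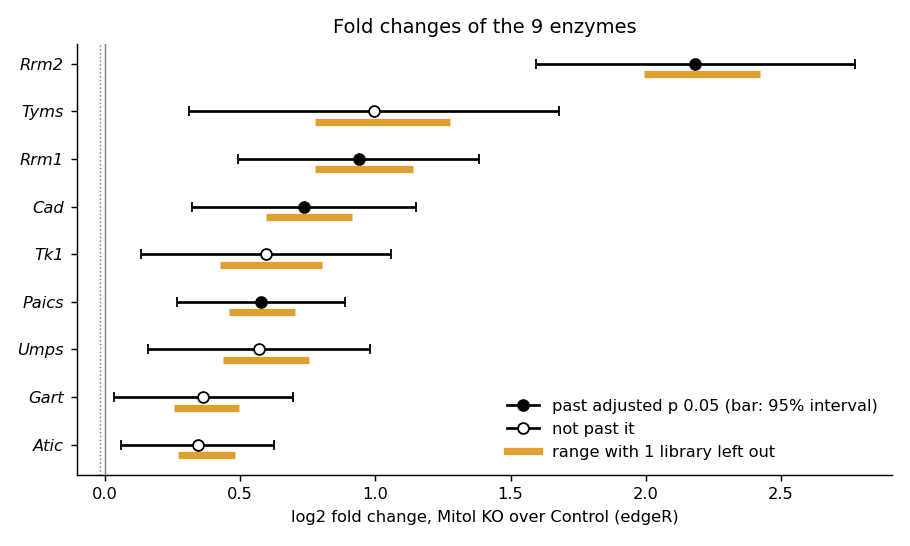
Log2 fold changes of the 9 enzymes, Mitol Δ/Δ over control HSCs, from edgeR (points, with 95% intervals), filled where the adjusted p was under 0.05, with the range of values when 1 library was left out (orange) and the median of all tested genes (dotted line, -0.02). The interval of Rrm2 (1.59 to 2.78) lies above those of the other enzymes except Tyms, whose upper bound is 1.68.

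Levels of different genes were compared per kilobase of the canonical GENCODE transcript. In control HSCs the order from high to low was Atic (465 normalized counts per kb), Tk1 (435), Cad (386), Paics (328), Gart (257), Rrm1 (248), Tyms (122), Rrm2 (110.0) and Umps (108). The sole neighbours in that order whose control libraries were separate were Rrm1 and Tyms. In Mitol Δ/Δ HSCs the order was Tk1 (667), Cad (652), Atic (597), Rrm2 (505), Paics (496), Rrm1 (481), Gart (334), Tyms (246) and Umps (162), and the libraries of every pair of neighbours overlapped. Rrm2 thus stood at place 8 of 9 in control and place 4 of 9 in Mitol Δ/Δ HSCs.

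The 9 enzymes ordered the libraries alike. Mitol Δ/Δ replicate 4 was the lowest of its group for 9 of 9, and replicate 1 was the highest for 6 and replicate 2 for 3. Replicates 1 and 2 lay above every control library for 9 of 9 enzymes, replicate 3 for 8 and replicate 4 for 3, namely Rrm1, Rrm2 and Paics. In the control group replicate 4 was lowest for 7 and replicate 3 for 2. On the log2 scale the Mitol Δ/Δ libraries spread more widely than the controls for 8 of 9. Groups did not overlap for 3 of 9 enzymes, all higher in Mitol Δ/Δ HSCs, while 15.4% of all tested genes had such groups, 8.17% in that direction.

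Left-out libraries moved the count of enzymes that passed. Without Mitol Δ/Δ replicate 4 all 9 rose, at log2 fold changes of 0.48 to 2.42 (edgeR, adjusted p 0.000168 to 0.0443), and 8.77% of all tested genes rose in that fit. Without Mitol Δ/Δ replicate 3, the library with the highest erythroid sum, 3 of 9 rose, with 1.85% of all genes. These were Rrm1, Rrm2 and Paics (log2 fold changes 1.05, 2.20 and 0.66), and Cad was at 0.81 (adjusted p = 0.0605, edgeR). Rrm2 alone passed without Mitol Δ/Δ replicate 1 or 2 or control replicate 2 or 4, when 1.84%, 1.43%, 0.995% and 1.6% of all genes rose. By DESeq2 with all 8 libraries, 6 of 9 rose, the 4 above with Tk1 and Umps, and 8.19% of all genes.

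Genes of DNA replication moved with the enzymes and ordered the libraries in a like way. The counts of 16 S phase genes (MCM helicase subunits, Pcna, Cdc6 and others) summed to 34331, 36483, 21951 and 17112 in Mitol Δ/Δ libraries and 20275, 16714, 15677 and 10929 in control libraries. Replicate 4 was again the lowest in both groups, and Mitol Δ/Δ replicate 4 was below control replicate 1. Of the 16, 6 rose and 0 fell by edgeR (14 higher and 0 lower at an unadjusted p under 0.05), with a median log2 fold change of 0.77, and 2 passed without Mitol Δ/Δ replicate 3. Mcm5 was at 0.93 (adjusted p = 0.0457, edgeR) and Pcna at 0.34 (adjusted p = 0.367, edgeR). All 12 mitosis genes rose, with a median of 1.50, among them Mki67 at 1.08 and Top2a at 1.24, and 8 passed without Mitol Δ/Δ replicate 3. Summed, the 12 ranged from 6435 to 13240 in Mitol Δ/Δ and from 2938 to 6495 in control libraries.

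Each enzyme was then expressed as a share of the S phase sum of its own library, a measure added after these values were seen. Rrm2 was 4.75% of that sum in Mitol Δ/Δ HSCs against 1.81% in the controls (geometric means), with separate groups. The log2 difference was 1.40 (SE 0.22, exact permutation p = 0.0286, 0.257 when adjusted for 9 enzymes). An enzyme that alone has that smallest p cannot pass after this adjustment. For the other 8 enzymes the groups overlapped (exact permutation p between 0.0571 and 1.0). Cad was 18.8% of the sum in both groups, a log2 difference of 0.00 with SE 0.10. Rrm1 was 8.27% and 7.55%, and Atic 7.41% and 9.84%. The part of the S phase genes in the rise of the enzymes was not tested beyond these ratios.

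**Figure D4:**
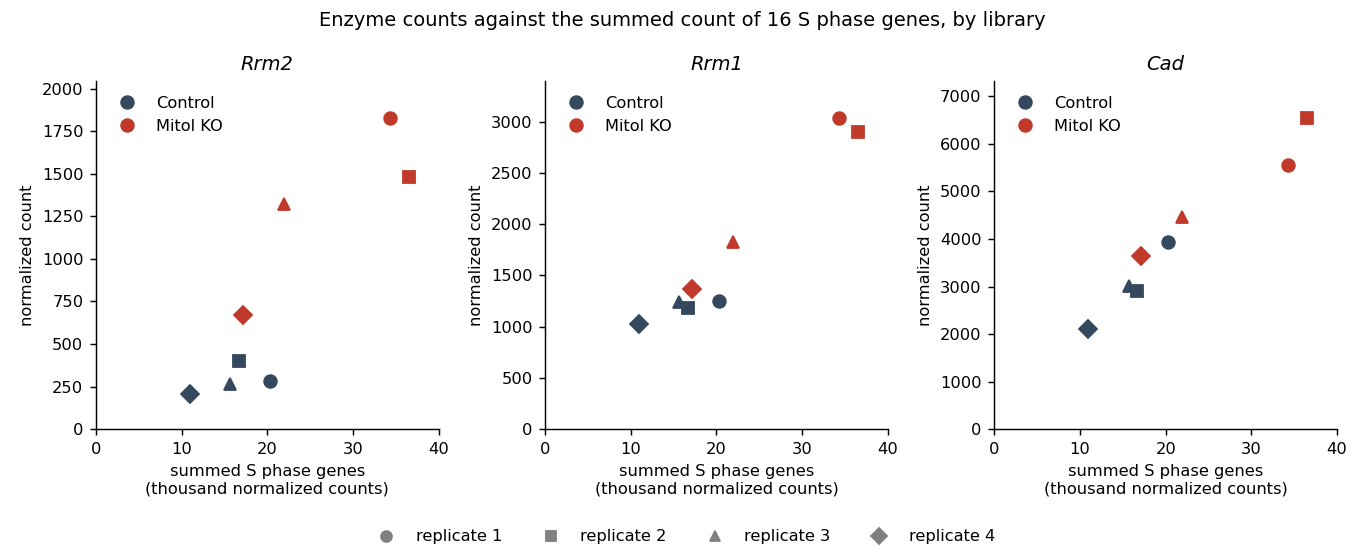
Normalized counts of Rrm2, Rrm1 and Cad (vertical axes, from 0) against the summed normalized counts of 16 S phase genes (horizontal axes, in units of 1000), 1 point per library, dark for control and red for Mitol Δ/Δ HSCs, with marker shapes for replicates. Rrm2 is at 671 in Mitol Δ/Δ replicate 4 and at 282 in control replicate 1, although the S phase sum is larger in the latter, while the Cad points of both groups rise together.

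The wider pathway was read from 6 lists that hold 81 genes, 74 of them tested. Of the 74, 12 rose (16.2%) and 1 fell (1.35%), with a median log2 fold change of 0.23. Of the 65 that are not among the 9 enzymes, 8 rose (12.3%) and 1 fell (1.54%), and their median was 0.15. Over all tested genes 4.68% rose and 3.75% fell, with a median of -0.02. With the 9 enzymes counted in, the share that rose was 26.7% for the dNTP list, 15.4% for purine synthesis and 25% for pyrimidine synthesis. It was 18.8% for salvage, 7.14% for one-carbon genes and 0% for breakdown. The one-carbon share was 1 gene of 14 and near the share of all genes.

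Among 15 enzymes of dNTP and thymidylate supply, 4 rose and 1 fell. The risers beside Rrm1 and Rrm2 were Dut, which hydrolyses dUTP, and Txn1, a thioredoxin that can reduce the reductase. Dut counted 591, 657, 356 and 309 against 309, 240, 287 and 171, and its log2 fold change was 0.91 (adjusted p = 0.0416, edgeR). Txn1 was at 0.68 (adjusted p = 0.0345, edgeR). The gene that fell was Tk2, the mitochondrial thymidine kinase. It counted 280, 294, 315 and 325 in Mitol Δ/Δ and 456, 427, 396 and 557 in control libraries, with separate groups (log2 fold change -0.62, SE 0.13, adjusted p = 0.0185, edgeR). So the cytosolic and the mitochondrial thymidine kinase had log2 fold changes of opposite sign, and the Tk1 value did not pass. Dtymk, Txnrd1 and the dNTP hydrolase Samhd1 were at 0.32, 0.15 and -0.11, none past the threshold.

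Among 13 purine synthesis genes, 2 rose and 0 fell (edgeR, with 6 higher and 0 lower at an unadjusted p under 0.05 and 2 and 0 by DESeq2). They were Paics and Impdh2, which opens the branch to GMP. Impdh2 counted 1910, 1923, 1604 and 1497 in Mitol Δ/Δ and 1234, 1264, 1349 and 1096 in control libraries, with separate groups (log2 fold change 0.47, SE 0.10, adjusted p = 0.0207, edgeR). Pfas and Adsl, abundant enzymes of the same route, were at 0.48 and 0.27 and did not pass. The median over the list was 0.27.

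Among 8 tested genes of pyrimidine synthesis, 2 rose, Cad and Nme1, a nucleoside diphosphate kinase. Nme1 counted 344, 471, 314 and 268 against 212, 181, 197 and 216 (log2 fold change 0.77, adjusted p = 0.0206, edgeR). Cmpk1 was at 0.21 and Ctps2 at -0.22, and neither passed. Nme2, the neighbour and close relative of Nme1, had means of 9.20 and 7.01 normalized counts in the 2 groups and was not tested, and reads shared by the 2 genes could have been split or dropped in counting.

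Among 16 tested salvage genes, 3 rose and 1, Tk2, fell (edgeR, with 7 higher and 3 lower at an unadjusted p under 0.05 and 6 and 3 by DESeq2). Dck, the deoxycytidine kinase, counted 546, 541, 460 and 434 in Mitol Δ/Δ and 322, 376, 264 and 264 in control libraries, with separate groups (log2 fold change 0.68, adjusted p = 0.0177, edgeR). Pnp, purine nucleoside phosphorylase, was at 0.52 with separate groups (adjusted p = 0.0263, edgeR), and Hprt, which salvages hypoxanthine and guanine, at 0.53 (adjusted p = 0.0496, edgeR). Uck2 was at 0.44 (adjusted p = 0.0612, edgeR) and Uckl1 at -0.09.

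Of 11 tested genes of nucleotide breakdown, 0 passed by edgeR in either direction, with 0 higher and 1 lower at an unadjusted p under 0.05. That gene, the nucleotidase Nt5c2, counted 1330, 1491, 1426 and 1629 against 1765, 1695, 1859 and 1776 (log2 fold change -0.29, adjusted p = 0.0557, edgeR) and was also the 1 gene of the list past the threshold by DESeq2 and by limma-voom. Ampd2, the most abundant of the list, was at -0.11. Among 14 one-carbon genes, 1 rose, the mitochondrial folate enzyme Mthfd2, with 3 higher and 2 lower at an unadjusted p under 0.05 (edgeR). It counted 253, 395, 165 and 93.1 in Mitol Δ/Δ and 123, 75.6, 57.5 and 39.5 in control libraries, so that replicate 4 lay below control replicate 1 (log2 fold change 1.62, SE 0.42, adjusted p = 0.0354, edgeR). Mthfd1, Shmt2 and Mthfd1l were at 0.48, 0.47 and 0.37 and did not pass.

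Calls outside the 9 enzymes differed in how far they rested on 1 library. The Dck call held in 7 of the 8 fits that left out 1 library and was lost without Mitol Δ/Δ replicate 2. Tk2 and Nme1 held in 6, and both lost the call without that replicate, Tk2 also without Mitol Δ/Δ replicate 1 and Nme1 without control replicate 2. Impdh2 held in 4, lost without Mitol Δ/Δ replicate 1 or 2 or control replicate 2 or 4. Txn1 and Pnp held in 3, Dut and Mthfd2 in 2, without Mitol Δ/Δ replicate 4 or control replicate 1, and Hprt in 1, without Mitol Δ/Δ replicate 4. Dut, Mthfd2 and Hprt also missed the threshold in limma-voom. Without Mitol Δ/Δ replicate 3, the library with the highest erythroid sum, the calls of Cad, Dut, Pnp, Hprt and Mthfd2 were lost. That left 4 genes past the threshold in the dNTP list, 2 in purine synthesis, 1 in pyrimidine synthesis, 2 in salvage and 0 one-carbon genes.

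**Figure D5:**
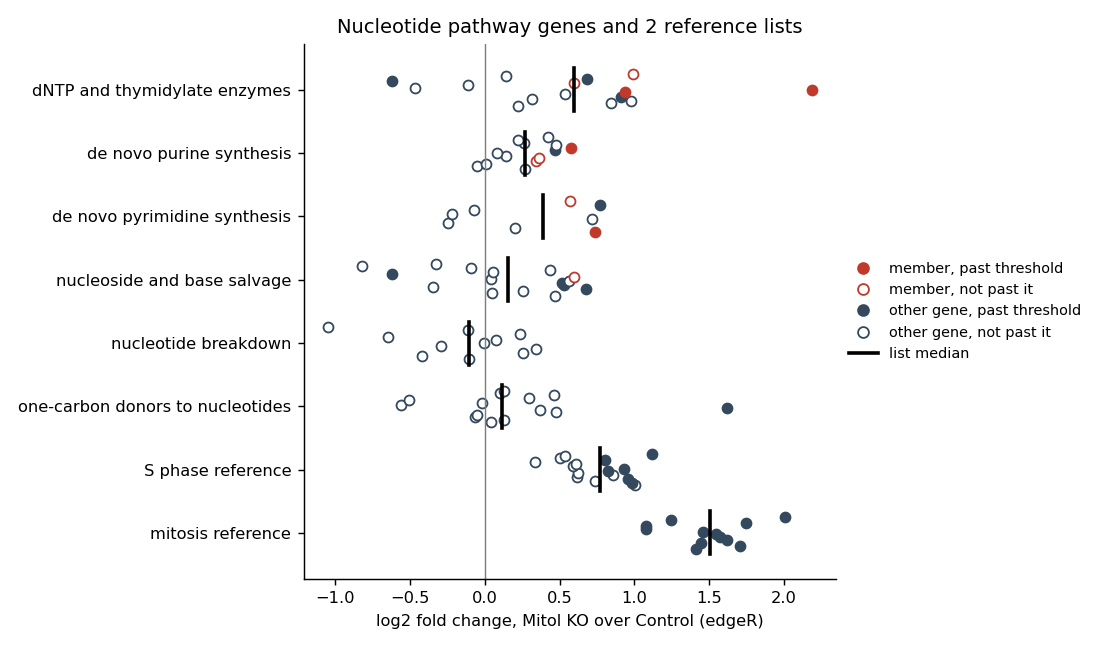
Log2 fold changes (horizontal axis), Mitol Δ/Δ over control HSCs, of the tested genes of 6 nucleotide lists and of S phase and mitosis genes (rows), with the 9 enzymes in red, other genes in dark, filled points past an adjusted p of 0.05 in edgeR and black bars for list medians, and a gene of 2 lists drawn in both rows. Rrm2 at 2.18 is the point farthest right, Tk2 at -0.62, a gene of 2 lists, gives both filled points left of 0, and list medians run from -0.11 for breakdown to 1.50 for mitosis.

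Genes were ranked by how closely their centred log2 CPM followed a member's over the 8 libraries, as a root-mean-square difference among 12013 genes with at least 50 mean normalized counts. The 5 closest to Rrm2 were Asf1b (0.257), E2f2 (0.277), Gtse1 (0.410), E2f8 (0.457) and Cdh24 (0.480). Those closest to Tyms were Tmem109, Pask, Pole, Pkmyt1 and Bard1, at 0.134 to 0.168. Those closest to Cad were Fam111a, Cdca7, Mrpl12, Slc25a5 and Srm, at 0.0562 to 0.0972, and those closest to Paics were Pgp, Cbfb, Mrpl28, Cox7b and Set, at 0.0502 to 0.0718. Among the 9 enzymes, Gart and Atic had the closest profiles (0.107) and Paics and Umps the next (0.130). Rrm2 was the farthest from the rest, between 0.678 from Rrm1 and 0.944 from Atic. Profiles were centred but not scaled, so this distance also holds the size of the fold change, which was largest for Rrm2. The 5 genes closest to Rrm2 had log2 fold changes of 1.41 to 1.89.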

How the data were processed

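RNA-seq was made from 8 libraries of 100 sorted HSCs. The authors aligned single-end reads with STAR to mm39, merged alignments with SAMtools and used Subread to count reads per gene, and the deposited values are raw counts with no normalization and no molecular identifiers. The annotation and the strand setting are not given in the sources used here. The table holds 23094 rows, each with a total of at least 11 counts. Of these, 1029 rows without a gene symbol, 0.335% to 0.467% of a library's counts, were left out of library sizes and tests.

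Mitol Δ/Δ and control libraries were compared with edgeR's quasi-likelihood test (version 4.0.16, R version 4.3.3), with TMM normalization, filterByExpr, group as the sole term and Benjamini-Hochberg adjustment over all 16444 genes tested, at a threshold of 0.05. Normalized counts used the size factors of DESeq2 (version 1.42.0). Levels and ratios (0.5 added to each count) were tested by 2-sided exact permutation over 70 arrangements, whose smallest p is 0.0286. DESeq2, limma-voom (limma version 3.58.1), other scalings and filters, a replicate block and fits without each library were alternatives. Gene positions are from GENCODE vM39 on GRCm39, the build of the files, and promoter windows are from RefSeq on GRCm38.p6, with no coordinates converted.

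The 9 enzymes, the lists and the tests were chosen with earlier results of these data known. Besides the 9, the genes named are those of 6 nucleotide lists past the threshold, the 3 most abundant of each list not past it, Rrm2b, Ppat, Dhodh, Samhd1, 4 reference genes, Marchf5 and the 5 genes with the closest profile to each of Rrm2, Tyms, Cad and Paics. Some genes these rules and lists cover are not reported here. Markers of other cells were also listed, and of these Cd48 and the erythroid Hbb-bt passed the test. The neutrophil and monocyte (9 of 10 in the table), B cell (5 of 8), T cell (3 of 7) and mast cell and basophil (2 of 8) lists had 0 genes past the threshold by edgeR. They summed to 559 to 1053, 136 to 150, 189 to 259 and 11.4 to 27.5 normalized counts in Mitol Δ/Δ libraries and to 446 to 674, 153 to 211, 172 to 200 and 11.3 to 28.7 in control libraries.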

Additional observations from a re-analysis of the deposited data

Results flagged for a closer look

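In each group of 4 libraries, the highest and the lowest library were set against the rest, over 158 groups, and 3 libraries were farther from their neighbour than the 95% limit of Dixon's test allows. Chance alone does this in about 1 of 20 groups, so 3 of 158 is fewer than that rate gives. The uridine-cytidine kinase Uck1 counted 579 in Mitol Δ/Δ replicate 2 and 448 to 464 in the other Mitol Δ/Δ libraries. Its relative Uck2 counted 1048 in control replicate 4 and 1560 to 1664 in the other control libraries. Aldh1l1, a folate enzyme that releases one-carbon units, counted 626 in Mitol Δ/Δ replicate 4 and 342 to 382 in the other Mitol Δ/Δ libraries. None of the 9 enzymes had such a library.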

How the results depend on the processing

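In 17 fits of each gene, all 9 enzymes kept a log2 fold change above 0. Rrm2 passed the threshold in 17, Rrm1 in 13, Paics in 12, Cad in 11, Tyms, Tk1, Gart and Umps in 2 each and Atic in 1. Under 3 other scalings, 2 other filters and limma-voom the same 4 enzymes passed. DESeq2 called 6, Rrm1, Rrm2, Tk1, Cad, Paics and Umps, with 1350 genes higher and 965 lower overall against 770 and 616 by edgeR, 4 pyrimidine, 9 salvage (6 higher and 3 lower), 1 breakdown, 2 one-carbon and 10 S phase genes. The breakdown count was also 1 with upper-quartile scaling, library totals alone and limma-voom, and limma-voom called 0 one-carbon genes. Same-numbered libraries shared little deviation (correlations -0.05 to 0.09, against -0.17 to 0.13 for other pairs), and 4 of 8 libraries were closest to their own number. These weak correlations cannot tell whether the numbers pair the samples, and the main test took them as unpaired. With the replicate block, 6 enzymes passed, Rrm1, Rrm2, Tyms, Cad, Paics and Gart (with 5.82% of all genes higher), beside 9 dNTP, 4 purine, 2 one-carbon and 13 S phase genes.

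With 1 library left out, the enzymes called ranged from 1 to 9 and those with separate groups from 3 to 8. Groups separate more easily with fewer libraries, and the share of all genes that did so was not counted in these sets. Genes called ranged from 167 to 1482 higher and 192 to 1019 lower. The fewest calls were without control replicate 2 or, for enzymes also, Mitol Δ/Δ replicate 1 or 2 or control replicate 4. The ranges were 1 to 10 for dNTP, 0 to 7 for purine, 0 to 4 for pyrimidine, 0 to 9 for salvage, 0 to 2 for breakdown, 0 to 3 for one-carbon, 0 to 15 for S phase and 3 to 12 for mitosis genes, and the highest of each was reached without Mitol Δ/Δ replicate 4. Log2 ratio differences ranged from 1.15 to 1.44 for Rrm2/Rrm1, 2.31 to 2.95 for Rrm2/Rrm2b, 1.25 to 1.57 for Rrm2/Cad, 0.28 to 0.37 for Paics/Ppat, 0.12 to 0.24 for Paics/Gart, 0.11 to 0.32 for Cad/Umps, -0.47 to -0.23 for Tk1/Tyms and -0.09 to 0.01 for Atic/Gart. The cause of these shifts was not tested. With 4 libraries a group and no molecular identifiers, Gart passed in fits of all 8 libraries only with the replicate block, and Atic in none of them.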
